A study of Homo sapiens with 6 samples.

Results

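RET and the genes of the GDNF family system were followed in PANC1, a human pancreatic duct carcinoma cell line, and in PANC1OR, its oxaliplatin-resistant subline. The 7 members were RET, the co-receptor genes GFRA1, GFRA2 and GFRA3, and the ligand genes GDNF, ARTN and NRTN, each taken as the row of the deposited count table with that symbol, out of 58735 gene rows. They were chosen by role and with their PANC1OR against PANC1 read counts in view, so their differences are given as a description, without p-values. RNA sequencing covered 3 cultures of each line, 1 library per culture. The parental cultures were untreated. The resistant subline was obtained by passaging PANC1 with stepwise more oxaliplatin, a DNA-damaging platinum compound, and is 1 derived line. The 3 resistant libraries therefore say nothing of other resistant derivations, and p-values for other genes measure the spread between cultures. Both lines were grown in the same medium with serum. The sources used here do not say if oxaliplatin was in the medium when RNA was taken.

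RET is a receptor tyrosine kinase of the cell surface. It does not bind its ligands alone: GDNF (glial cell line-derived neurotrophic factor), neurturin (NRTN) and artemin (ARTN) first bind a lipid-anchored co-receptor, preferentially GFRA1, GFRA2 and GFRA3 respectively, and the pair then brings RET molecules together so that their kinase domains activate each other. The signal passes through adaptor proteins to the RAS-ERK and PI3K pathways. In development the system guides enteric neurons and the branching kidney duct, and in pancreatic cancer it is known for the attraction of tumour cells toward nerves, which release the ligands.

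The DNA around the start of 3 members is printed because these were the only members with reads in all 6 libraries: RET and ARTN, with lower levels in PANC1OR, and NRTN, with more reads there. Each window runs from 250 bases before to 50 bases after a start listed in RefSeq, 5′ to 3′ on the gene's strand, on GRCh38.p14. For ARTN this start lies inside the GENCODE gene span given below, 43933320 to 43937240. The whole ARTN window falls within that span, so its values do not describe the DNA at the GENCODE start. Capitals mark the GC box GGGCGG on either strand, overlaps counted.
RET chr10:43076819-43077118, plus strand: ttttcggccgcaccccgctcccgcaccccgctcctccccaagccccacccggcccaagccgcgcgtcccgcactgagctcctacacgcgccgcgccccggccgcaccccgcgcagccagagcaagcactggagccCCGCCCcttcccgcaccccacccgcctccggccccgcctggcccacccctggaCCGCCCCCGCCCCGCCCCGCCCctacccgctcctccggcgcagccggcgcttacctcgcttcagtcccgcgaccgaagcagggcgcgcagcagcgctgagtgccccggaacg
ARTN chr1:43933551-43933850, plus strand: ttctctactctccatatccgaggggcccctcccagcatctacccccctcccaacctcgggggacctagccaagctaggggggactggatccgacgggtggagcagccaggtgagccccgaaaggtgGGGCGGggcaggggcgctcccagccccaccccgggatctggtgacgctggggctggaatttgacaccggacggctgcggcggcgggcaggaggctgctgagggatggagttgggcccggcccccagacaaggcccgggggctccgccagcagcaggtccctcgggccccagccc
NRTN chr19:5804817-5805116, plus strand: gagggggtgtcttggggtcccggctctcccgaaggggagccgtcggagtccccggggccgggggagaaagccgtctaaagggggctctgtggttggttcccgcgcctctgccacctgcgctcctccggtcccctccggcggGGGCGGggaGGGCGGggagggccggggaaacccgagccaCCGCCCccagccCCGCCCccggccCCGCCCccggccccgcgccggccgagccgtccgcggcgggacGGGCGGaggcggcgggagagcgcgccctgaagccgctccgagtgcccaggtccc
The RET window held 5 GC boxes and 41 CG dinucleotides at 78.7% GC, the NRTN window 6 and 38 at 80%, and the ARTN window 1 and 18 at 71.7%. The median over 35116 windows of this length was 58.7% GC and 14 CG dinucleotides, and 45.0% of them held a GC box. None of these 3 windows held CCAAT or TATAAA on either strand, which 34.6% and 11.5% of all windows did. RET has a second listed start at chr10:43104515-43104814, whose window had 58.7% GC and 10 CG dinucleotides, and gene counts do not separate the starts. RefSeq windows were matched for 6 of the 7 members.

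RET was expressed in PANC1 and was close to absent in PANC1OR. RET (ENSG00000165731, GRCh38 chromosome 10, 43077064 to 43130351, plus strand) had 757, 512 and 906 reads in PANC1 replicates 1 to 3 and 24, 15 and 11 reads in PANC1OR replicates 1 to 3. As CPM, read counts scaled to a common library total with TMM factors, this was 47.1, 53.5 and 55.4 in PANC1 and 0.897, 0.937 and 0.908 in PANC1OR. The groups did not overlap, and the 3 resistant libraries lay close together although they were sequenced to different depths. At 11 to 24 reads each, counting error alone is wider than that closeness. The mean fell from 52.0 ± 4.33 to 0.914 ± 0.0205 CPM (SD, n = 3). The log2 fold change was -5.82 ± 0.24 (SE), the 51st lowest value (rank 51) among 18751 tested genes. Pooled over the libraries, 2175 reads stood against 50, a ratio of 56.9 with an exact 95% interval of 43.0 to 76.8, which covers counting error only. Each pairing of a PANC1 with a PANC1OR library gave a ratio between 50.3 and 61.8. In bulk RNA, fewer cells with RET and less RET RNA in each cell cannot be told apart.

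**Figure D1:**
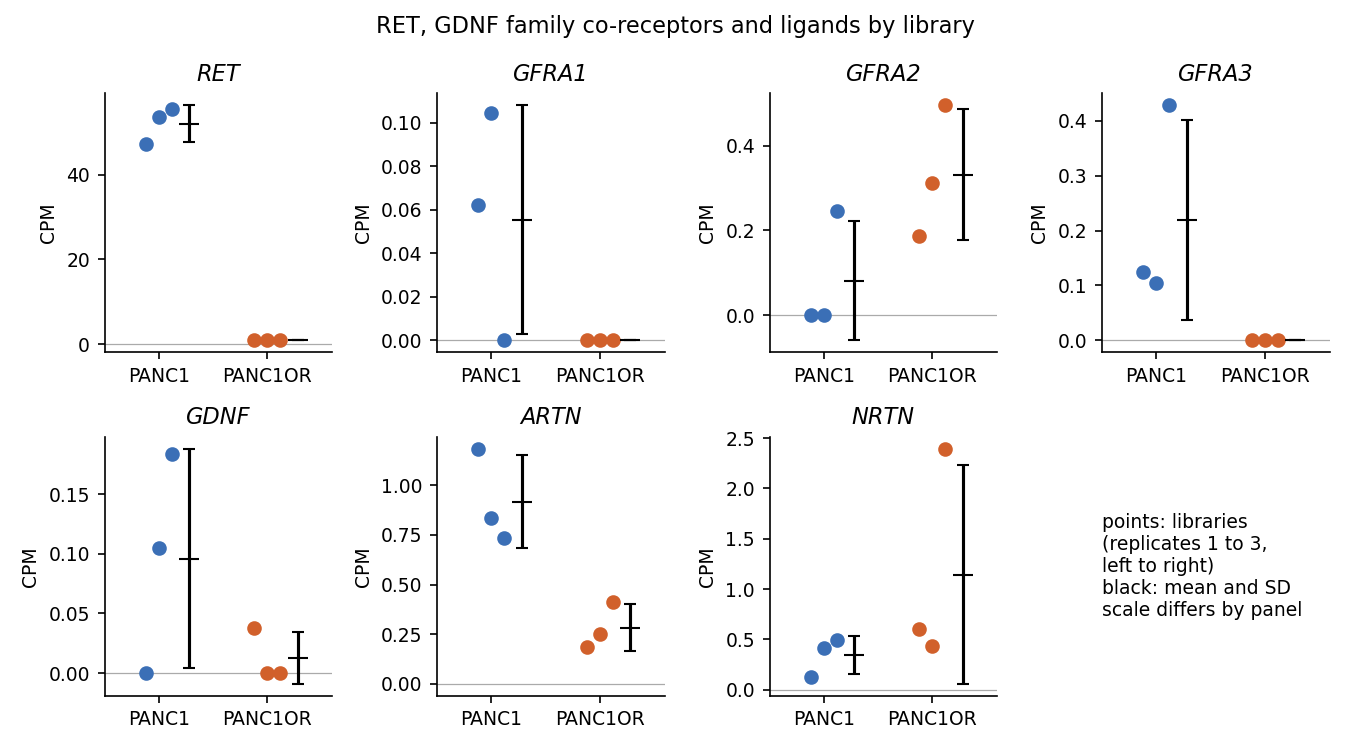
CPM of the 7 members in each library: points are replicates 1 to 3 from left to right in PANC1 (blue) and PANC1OR (orange), black marks are the mean and SD, and each panel has its own scale. RET lies between 47.1 and 55.4 CPM in PANC1 and between 0.897 and 0.937 in PANC1OR, while the other members lie below 2.5 CPM in all libraries.

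The 3 co-receptor genes were near the detection limit in both lines. GFRA1 (ENSG00000151892, chromosome 10, 116056925 to 116276803), the preferred partner of GDNF, had 1, 1 and 0 reads in PANC1 and 0 in each PANC1OR library, so both lines were at or under the floor of 3 reads per line and no fold is given. GFRA2 (ENSG00000168546, chromosome 8, 21690398 to 21812357), the partner of neurturin, had 0, 0 and 4 reads in PANC1 and 5, 5 and 6 in PANC1OR. These 4 and 16 reads gave a ratio of 3.06 toward PANC1OR (exact 95% interval 0.987 to 12.6), and the libraries overlapped. GFRA3 (ENSG00000146013, chromosome 5, 138252380 to 138274621), the partner of artemin, had 2, 1 and 7 reads in PANC1 and 0 in each PANC1OR library. Set against the floor of 3 reads over the PANC1OR group, which is 0.0547 CPM, the PANC1 reads of GFRA3 gave a 4.36-fold difference. The floor covers the PANC1OR side only, and counting error of the 10 PANC1 reads is not included. The groups did not overlap, and 7 of the 10 reads came from PANC1 replicate 3. Summed over the 3 genes, co-receptor levels were 0.187, 0.209 and 0.673 CPM in PANC1 and 0.187, 0.312 and 0.495 in PANC1OR, so the sums overlapped. Reads of GFRA1, GFRA2 and GDNF cannot be separated from those of a gene on the opposite strand that each overlaps.

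Among the ligand genes, artemin was lower and neurturin had more reads in PANC1OR. ARTN (ENSG00000117407, chromosome 1, 43933320 to 43937240) had 19, 8 and 12 reads in PANC1 and 5, 4 and 5 in PANC1OR, or 1.18, 0.836 and 0.734 against 0.187, 0.2498 and 0.413 CPM. The lines did not overlap for ARTN. Its mean was 0.917 ± 0.235 CPM in PANC1 and 0.283 ± 0.117 in PANC1OR (SD, n = 3), a log2 fold change of -1.78 ± 0.45 (SE). The pooled reads, 39 against 14, gave a ratio of 3.64 (1.93 to 7.26). NRTN (ENSG00000171119, chromosome 19, 5805067 to 5828324) had 2, 4 and 8 reads in PANC1 and 16, 7 and 29 in PANC1OR, or 0.1245, 0.418 and 0.489 against 0.598, 0.437 and 2.39 CPM. The libraries overlapped, and PANC1OR replicate 3 held 29 of the 52 reads of its line. The ratio was 2.84 toward PANC1OR (1.55 to 5.55), or 1.51 in log2, and 0.69 in log2 without that library. NRTN has 73.8% GC in its longest transcript and ARTN 68.2%. The median tested gene with over 60% GC was 1.32 higher in log2 in PANC1OR replicate 3 than in the other resistant libraries. The part of this shift in the NRTN value was not tested. GDNF (ENSG00000168621, chromosome 5, 37812677 to 37840041) had 0, 1 and 3 reads in PANC1 and 1, 0 and 0 in PANC1OR, a ratio of 5.23 with an interval of 0.517 to 257, so no difference was detectable at this depth. Summed over the 3 ligand genes, levels were 1.31, 1.36 and 1.41 CPM in PANC1 and 0.822, 0.687 and 2.81 in PANC1OR, where replicates 1 and 2 lay below and replicate 3 above all PANC1 libraries.

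Per kilobase of exon, the scale on which levels of different genes can be compared, RET led the 7 members in PANC1 with 5.80 ± 0.483 CPM per kb. ARTN followed at 0.345 ± 0.0886 and NRTN at 0.225 ± 0.127. GFRA3 was at 0.110 ± 0.0912 CPM per kb, and GDNF, GFRA2 and GFRA1 lay between 0.00522 and 0.0207. All neighbours below RET in that order lay within each other's spread. ARTN reached 5.96% of the RET level and GFRA3 1.90%. In PANC1OR the order was NRTN at 0.748 ± 0.711, ARTN at 0.107 ± 0.0439, RET at 0.102 ± 0.00228 and GFRA2 at 0.0574 ± 0.0269 CPM per kb. Neighbours in that order did not differ beyond their SD except RET and GFRA2. That exception rests on 24, 15 and 11 reads of RET and 5, 5 and 6 of GFRA2, and counting error was not weighed. GDNF followed at 0.00269 ± 0.00466, below the spread of GFRA2, and GFRA1 and GFRA3 had no reads.

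Of the 7 members, 2 passed the filter on low counts, RET and ARTN, both through PANC1, where they were higher. Across all 18751 tested genes, 17.8% were called changed by edgeR's quasi-likelihood test at an adjusted p under 0.05, 10.3% higher and 7.50% lower in PANC1OR. Both tested members were among the lower ones, which their choice fixed. RET was in this class in every fit run. ARTN left it in each fit without 1 library other than the one without PANC1OR replicate 3, and with the replicate number as a block. These fits reuse the libraries by which the members were chosen, so they show sensitivity to processing and add no support. The log2 fold change of RET ranged from -5.90 to -5.78 over the 16 fits, and that of ARTN from -2.17 to -1.50.

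**Figure D2:**
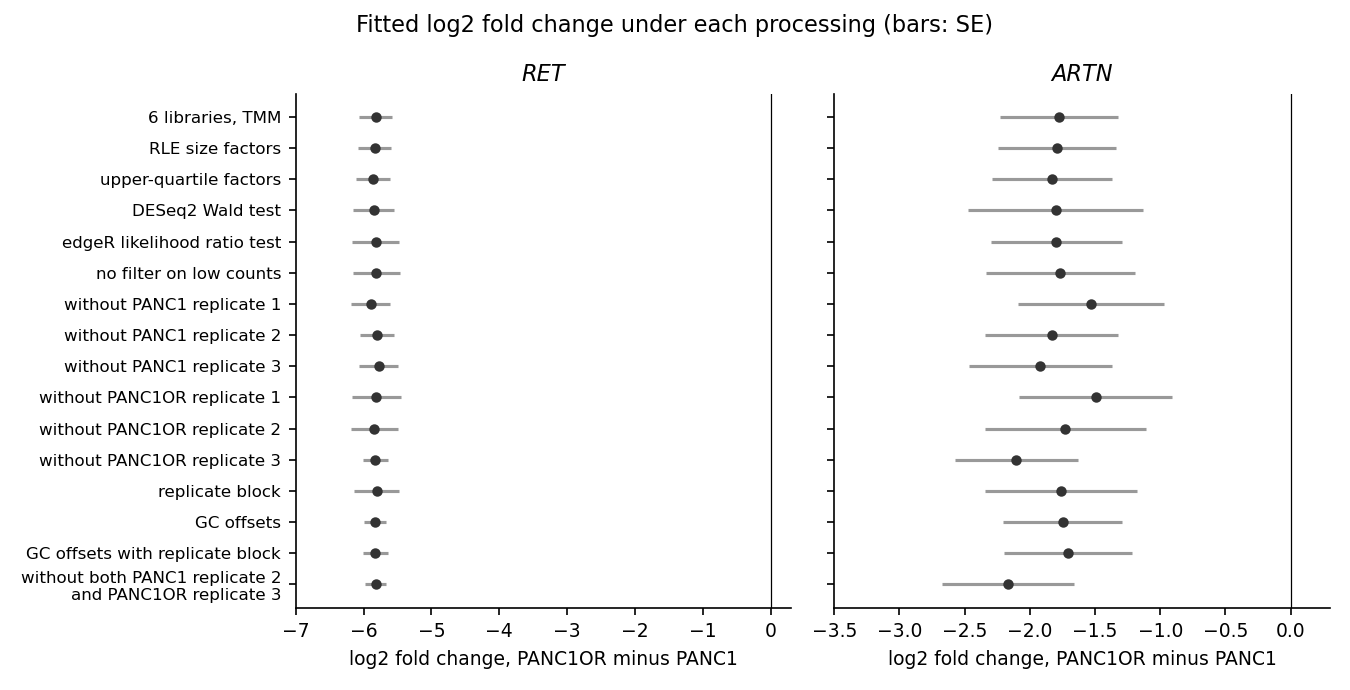
Fitted log2 fold changes of RET (left) and ARTN (right), PANC1OR minus PANC1, with SE bars, for the fit on 6 libraries and each alternative. The RET values stay between -5.90 and -5.78, whereas those of ARTN spread from -2.17 to -1.50.

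The libraries held 10199268 to 26394388 reads in genes. On principal components the lines separated on the first (65.6% of the variance) and PANC1OR replicate 3 stood apart on the second (25.2%). Without that library 44.1% of 19650 tested genes were called (22.1% higher and 22.0% lower), and with per-library GC offsets 38.7% (18.2% and 20.6%), so list counts are given for these fits too. Markers of the duct lineage were present: KRT8 and KRT18, simple epithelial keratin genes, were among the 6 tested of 8 duct markers, of which KRT19 and SOX9 were lower, while CFTR had 0 reads and the sum ranged from 1033 to 1926 CPM in PANC1 and 665 to 1365 in PANC1OR. Neuronal markers summed to 14.8 to 17.9 CPM in PANC1 and 105 to 140 in PANC1OR, with 2 of 4 tested genes higher (SYT1 and PRPH), ELAVL4 and STMN2 at 1 read each, and 4 of 7 under a mean of 1 CPM. Of 8 Schwann and neural crest markers 7 were under a mean of 1 CPM, ERBB3, also listed as a receptor, was higher, and CDH19 had 0 reads. Their sums were 3.80 to 4.71 and 18.7 to 26.2 CPM. Neuroendocrine markers summed to 49.7 to 60.3 and 93.4 to 170.6 CPM, with 1 of 3 tested genes higher and NEUROD1 at 0 reads. Fibroblast markers summed to 112 to 123 and 117 to 301 CPM with 1 of 3 lower, and the leukocyte and endothelial sums reached at most 2.64 CPM. The part of these cell types in the values of the members was not tested.

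Among receptor tyrosine kinases, RET moved from the more strongly expressed receptors to the weakly expressed ones. In PANC1 it ranked 13 of 58 receptor genes by mean CPM per kb, beside DDR1 (5.91 ± 0.335), a collagen receptor gene, and ERBB2 (5.79 ± 0.509), an EGF receptor family gene, which lay within the spread of RET. In PANC1OR it ranked 34, between CSF1R (0.127 ± 0.0318), the receptor gene of macrophage growth factor, and MUSK (0.0673 ± 0.0277), of the muscle synapse. Of the 57 other receptor genes 39 were tested, 12 rose and 5 fell, with a median log2 fold change of -0.10 beside 0.04 over all tested genes. The called share was 43.6%, beside 17.8% of all tested genes. Expression of INSR, which encodes the insulin receptor, increased from 3.79 ± 0.398 to 35.1 ± 1.29 CPM, or by 3.20 ± 0.21 in log2 (edgeR adjusted p = 6.25e-05). ERBB3, a partner of ERBB2, rose by 3.03 ± 0.24 on the log2 scale, MERTK, a receptor for signals of dying cells, by 1.45 ± 0.16, and EPHB6, an ephrin receptor with an inactive kinase domain, by 6.12 ± 0.49. EPHB6 was at 626 CPM in PANC1OR replicate 3 and at 247 and 229 in replicates 1 and 2. Of the other receptor genes called lower, only NTRK2, the receptor gene of the nerve growth factor relative BDNF, had 0 reads in PANC1OR. It had 59 reads in PANC1, a 25.7-fold difference from the floor of 3 reads. Counting error of the 59 reads is not included, and NTRK2 was singled out after its value was seen. With RET counted, 18 receptor genes were called with 6 libraries, 30 (12 higher, 18 lower) without PANC1OR replicate 3 and 25 (12 and 13) with GC offsets. The shares were 45.0%, 73.2% and 62.5% of tested receptor genes, beside 17.8%, 44.1% and 38.7% of all tested genes.

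**Figure D3:**
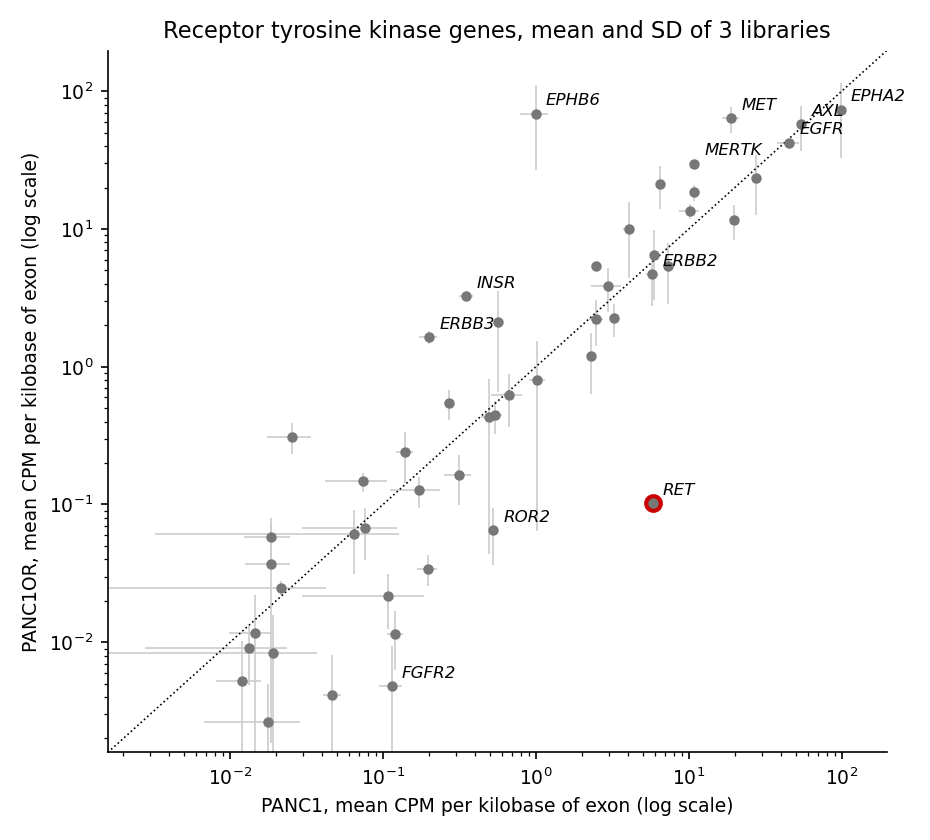
Mean CPM per kilobase of exon of the 50 receptor tyrosine kinase genes with reads in both lines, PANC1 on the horizontal and PANC1OR on the vertical axis, both logarithmic, with SD over 3 libraries (bars that would reach 0 are shortened) and a dotted line of equal level. RET, in red, lies at 5.80 and 0.102, far below the line, whereas INSR, ERBB3 and EPHB6 lie above it.

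None of the other 4 genes of the ligand and co-receptor family was called lower. PSPN, which encodes persephin, the ligand of GFRA4, was at 1.49, 1.88 and 2.26 CPM in PANC1 and 1.68, 1.75 and 2.48 in PANC1OR, so the libraries overlapped (log2 fold change 0.05 ± 0.31, adjusted p = 0.941, edgeR). Its reads cannot be separated from those of ALKBH7, which overlaps it on the opposite strand. GFRA4 and GFRAL, co-receptor genes of persephin and of the stress hormone GDF15, had 0 reads in all 6 libraries, which allows up to 0.0715 CPM in PANC1 and 0.0547 in PANC1OR. GDF15, a distant relative that signals through GFRAL and RET in the hindbrain, was at 15.6, 25.2 and 19.6 CPM in PANC1 and 93.5, 95.5 and 275 in PANC1OR. It rose by 2.94 ± 0.47 on the log2 scale (adjusted p = 0.00341) and was the only one called of the 2 tested genes in this group of 4, beside 17.8% of all tested genes.

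Other surface proteins that bind GDNF family ligands or act on RET included 7 called genes of 13 tested, 4 higher and 3 lower in PANC1OR. That was 53.8%, beside 17.8% of all tested genes. NCAM1, the neural cell adhesion molecule and an alternative receptor for GDNF bound to GFRA1, was at 0.1245, 0.209 and 0.306 CPM in PANC1 and 5.08, 5.37 and 3.96 in PANC1OR. It rose by 4.44 ± 0.39 in log2 (adjusted p = 0.000189, edgeR). SORL1, a sorting receptor that carries GDNF and GFRA1 into the cell, rose from 56.5 ± 12.7 to 349 ± 9.84 CPM (2.62 ± 0.22). CDH2, which encodes N-cadherin, fell by 6.27 ± 0.32, and SDC2, a heparan sulfate syndecan gene, fell by 5.38 ± 0.29 in log2, from 20.5 ± 2.45 to 0.477 ± 0.0943 CPM. The other called genes were NRP1 (1.90 ± 0.18), PTPRJ (0.62 ± 0.17) and LRIG1 (-1.44 ± 0.25), named after their values were seen, and 6 genes did not pass, among them SDC1 at 0.13 ± 0.32. Without PANC1OR replicate 3, and likewise with GC offsets, 4 rose and 6 fell (76.9%, beside 44.1% and 38.7% of all tested genes). The median log2 fold change was 0.13 with 6 libraries and -0.34 without PANC1OR replicate 3.

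Adaptors that carry the signal of active RET were called in equal numbers in both directions. SHC4, a neural member of the SHC adaptor family, rose from 0.117 ± 0.0615 to 2.04 ± 0.487 CPM (4.04 ± 0.48, adjusted p = 0.000855, edgeR). IRS1, an insulin receptor substrate that RET can engage, rose by 1.51 ± 0.25 in log2. PIK3R1, the regulatory subunit gene of PI3 kinase, fell from 46.3 ± 5.22 to 13.0 ± 3.21 CPM (-1.83 ± 0.25), and STAT3, a transcription factor activated by cytokine and growth factor receptors, fell by 1.13 ± 0.19 in log2. Of 32 listed genes 29 were tested, 4 rose, 4 fell and 21 did not pass, with a median of 0.03, beside 0.04 over all genes. The called share was 27.6%, beside 17.8% of all tested genes. The number called was 5 without PANC1 replicate 1 or 3. It was 16 without PANC1OR replicate 3 (8 and 8) and 16 with GC offsets (6 higher, 10 lower). In both fits this was 55.2%, beside 44.1% and 38.7% of all tested genes.

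Of the 9 tested genes of RET turnover, 2 were called, the ubiquitin ligase genes NEDD4L and NEDD4. This share of 22.2% was near the 17.8% of all tested genes. NEDD4L, which encodes a ubiquitin ligase of membrane proteins, rose from 24.8 ± 2.67 to 96.7 ± 6.27 CPM (1.96 ± 0.19, adjusted p = 0.000274, edgeR). Its relative NEDD4 rose by 1.29 ± 0.27 in log2 (adjusted p = 0.0125), but its adjusted p was 0.0561, 0.0606 and 0.0710 without PANC1 replicates 1, 2 and 3. SH3KBP1, an endocytic adaptor gene, was at 184 ± 32.1 and 127 ± 0.178 CPM (adjusted p = 0.0918). CBL and CBLB, the ubiquitin ligase genes best known for RET turnover, did not pass, with log2 fold changes of -0.07 ± 0.19 (adjusted p = 0.854) and 0.22 ± 0.24 (adjusted p = 0.618), and were named after their values were seen. None of the 9 fell and 7 did not pass. Leaving out PANC1 replicate 1, 2 or 3 left 1 call, and leaving out PANC1OR replicate 3 gave 5, of which 3 were higher. GC offsets gave 4 calls, 2 in each direction. Without PANC1OR replicate 3 and with GC offsets the shares were 55.6% and 44.4%, beside 44.1% and 38.7% of all tested genes.

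Genes known to follow RET or ERK signalling in the kidney duct and other tissues included 8 that rose and 2 that fell in PANC1OR, the line with little RET. CXCR4, a chemokine receptor gene, was at 1.18, 1.98 and 0.612 CPM in PANC1 and 56.6, 56.0 and 68.0 in PANC1OR, a log2 fold change of 5.63 ± 0.40 (adjusted p = 7.60e-05, edgeR). WNT11, which encodes a secreted WNT ligand of the ureteric bud tip, rose by 5.43 ± 0.54 in log2. ETV1, an ETS family transcription factor gene, rose from 3.67 ± 0.640 to 65.2 ± 12.5 CPM (4.14 ± 0.27), and MYB, another transcription factor gene, rose by 3.56 ± 0.28. ETV4 and ETV5 are paired targets of RET in the kidney. ETV4 rose by 1.80 ± 0.32 in log2 (22.8, 22.4 and 45.7 CPM in PANC1OR), while ETV5 was at 143 ± 7.61 and 135 ± 8.28 CPM (adjusted p = 0.778). Of the ERK feedback genes of the SPRY, SPRED and DUSP families, SPRED2 (1.35 ± 0.16) and DUSP5 (1.36 ± 0.21) rose and SPRY1 (-0.81 ± 0.16) fell, these 3 named after their values were seen. SPRY4 and DUSP6 did not pass, at 179 ± 9.21 against 127 ± 21.9 CPM (adjusted p = 0.115) and 32.6 ± 0.956 against 27.6 ± 7.40 CPM (adjusted p = 0.576). Of 21 tested genes 8 rose, 2 fell and 11 did not pass, with a median of 0.56 beside 0.04 over all genes. The called share was 47.6%, beside 17.8% of all tested genes. Without PANC1OR replicate 3, and likewise with GC offsets, 9 rose and 3 fell (57.1%, beside 44.1% and 38.7% of all tested genes). Without PANC1 replicate 1 or 3, 8 rose and 0 fell. The list holds targets of several receptors.

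Of 20 transcription factor genes known from RET expression in other tissues, 5 were called, 4 of them higher in PANC1OR. SOX10, which drives RET in enteric neural crest, did not pass the filter on low counts, with mean levels of 0.401 ± 0.111 CPM (PANC1) and 0.120 ± 0.124 CPM (PANC1OR). It overlaps POLR2F on the opposite strand, and reads of the 2 genes cannot be separated. GATA3, which acts upstream of RET in the kidney duct, was at 1.06, 0.940 and 1.65 CPM in PANC1 and 16.7, 14.4 and 21.5 in PANC1OR, a rise of 3.81 ± 0.32 in log2 (adjusted p = 0.000149, edgeR). TFAP2C, a factor known to act on RET in breast cancer cells, rose from 7.46 ± 0.957 to 59.3 ± 2.86 CPM (2.99 ± 0.21). TFAP2A, its relative, fell by 1.12 ± 0.18 in log2. RARG, a retinoic acid receptor gene, stood at 1.20 ± 0.33, with an adjusted p of 0.0419 that became 0.161, 0.0966 and 0.168 without PANC1 replicates 1, 2 and 3 and 0.0791 with the replicate block. In all 12 were tested, 4 rose, 1 fell and 7 did not pass, with a median of 0.49. The called share was 41.7%, beside 17.8% of all tested genes. Without PANC1OR replicate 3, 6 rose and 5 fell of 13 tested, and with GC offsets 4 and 3. These shares were 84.6% and 58.3%, beside 44.1% and 38.7% of all tested genes.

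**Figure D4:**
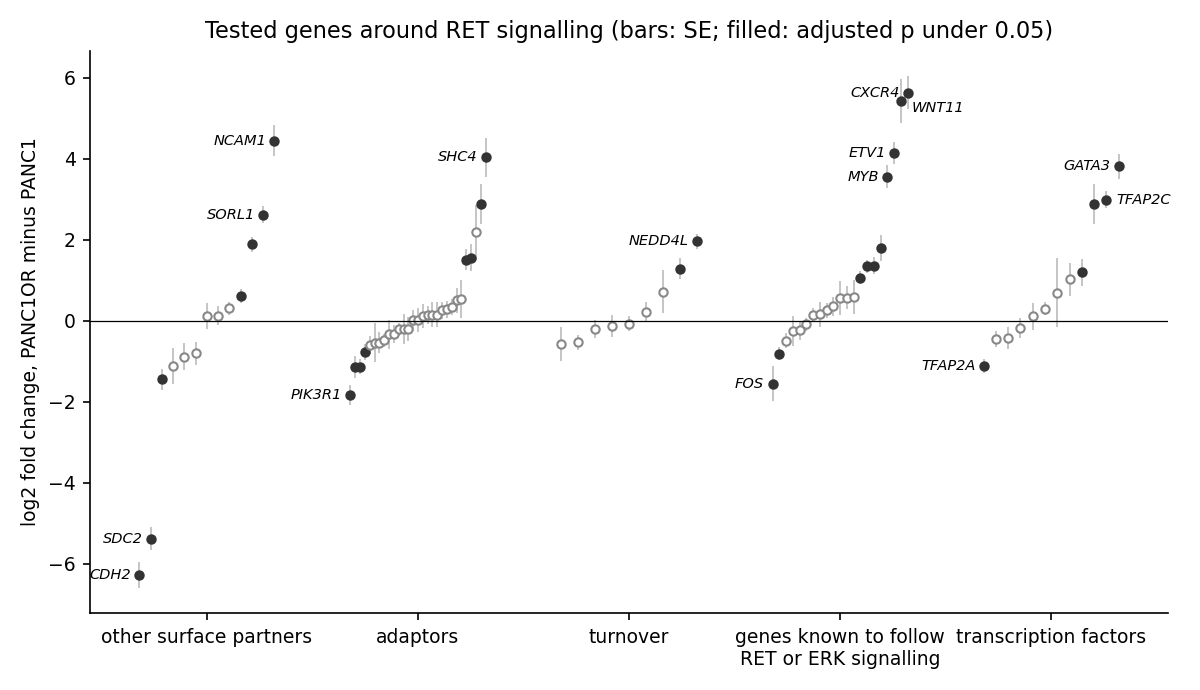
Log2 fold changes (PANC1OR minus PANC1) with SE bars for tested genes of 5 groups around RET, each group sorted by value, filled points passing an adjusted p under 0.05. CDH2 and SDC2 are the lowest points at -6.27 and -5.38, and CXCR4 and WNT11 the highest at 5.63 and 5.43.

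Other neurotrophic factors and their receptors showed 3 calls, all lower in PANC1OR. They were NTRK2, already given above, the neurotrophic receptor gene CNTFR (log2 fold change -2.15 ± 0.42) and SORCS2, a sortilin family gene (-2.87 ± 0.60), all under a mean of 1 CPM over the 6 libraries and named after their values were seen. Without reads in PANC1OR, NTRK2 passed the filter on low counts only through PANC1, so it could be called in the lower direction only. The 4 genes of this list above that level with the smallest p-values did not pass. LIF, a cytokine gene, was at 54.4 ± 2.77 and 93.0 ± 36.8 CPM (adjusted p = 0.0998, edgeR), and MDK, which encodes the growth factor midkine, at 65.9 ± 26.4 and 127.9 ± 56.2 (adjusted p = 0.124). SORT1, a receptor gene for neurotrophin precursors, had an adjusted p of 0.371 and BDNF one of 0.403. Of 20 listed genes 12 were tested, 0 rose and 3 fell, with a median of 0.03. The called share of 25.0% stood beside 17.8% of all tested genes. Without PANC1OR replicate 3, 1 rose and 4 fell, with GC offsets 2 and 5. These shares were 41.7% and 58.3%, beside 44.1% and 38.7% of all tested genes. Each of 4 fits without another library (PANC1 replicate 1, 2 or 3, or PANC1OR replicate 1) had 2 calls.

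The genes next to RET differed far less than RET. Within 500 kb of the RET start 9 genes were tested. CSGALNACT2, a chondroitin sulfate enzyme gene 61.4 kb downstream, had a log2 fold change of 0.22 ± 0.24 (adjusted p = 0.608, edgeR), and RASGEF1A, a RAS exchange factor gene at 190 kb, one of 0.80 ± 0.27 (adjusted p = 0.0838). They were the nearest tested protein-coding genes downstream. The called neighbours were BMS1, a ribosome assembly gene 294 kb upstream, at -0.66 ± 0.18 (adjusted p = 0.0392), and ZNF487, a zinc finger gene 360 kb downstream, at -0.81 ± 0.24 (adjusted p = 0.0494). Both kept the call without PANC1OR replicate 3 and lost it without any other 1 library, where the adjusted p reached 0.160 for BMS1 and 0.171 for ZNF487. Around all 7 members together 75 neighbours were tested, 5 rose and 8 fell, 17.3% beside 17.8% of all genes. Of the 17 around GFRA3, 5 were lower, with 7.50% of all genes called lower. They included the mitotic kinesin gene KIF20A (-0.94 ± 0.18), the histone demethylase gene KDM3B (-0.84 ± 0.16), the translation termination gene ETF1 (-0.78 ± 0.19) and CDC23 (-0.79 ± 0.20), a subunit gene of the anaphase-promoting complex, with BRD8 the fifth, named after its value was seen. Each of these 4 calls was lost in at least 1 fit without 1 library. The remaining called neighbours were PIWIL2 (2.58 ± 0.39) and DMTN (2.44 ± 0.46) near GFRA2, EGFLAM (1.17 ± 0.22) near GDNF, ST3GAL3 (-1.04 ± 0.23) near ARTN, and TINCR (2.05 ± 0.36) and PTPRS (1.11 ± 0.32) near NRTN. Some of these calls were lost without 1 library: DMTN (without PANC1 replicate 3), EGFLAM and ST3GAL3 (without PANC1 replicate 1 or 3). ST3GAL3 also lost its call without PANC1OR replicate 1 or 2 and with the replicate block. PTPRS lost its call without PANC1 replicate 1, 2 or 3, with RLE factors and with the replicate block. The log2 fold changes moved little: 2.37 for DMTN without PANC1 replicate 3, and 1.13, 1.05 and 1.14 for PTPRS without PANC1 replicates 1, 2 and 3. The total of 13 became 4, 7 and 3 without PANC1 replicates 1, 2 and 3, 5, 6 and 37 without PANC1OR replicates 1, 2 and 3, and 35 with GC offsets. The last 2 counts were 48.7% and 46.7% of tested neighbours, beside 44.1% and 38.7% of all tested genes. The direction of the calls moved as well, with 5 higher and 0 lower without PANC1OR replicate 1, 10 and 27 without PANC1OR replicate 3 and 5 and 1 with the replicate block. Near ARTN 11 of 19 tested genes were lower without PANC1OR replicate 3 (median -0.71), against 1 with 6 libraries. Without PANC1OR replicate 3, 22.0% of all tested genes were called lower. No gene within 500 kb of the GFRA1 start was tested.

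**Figure D5:**
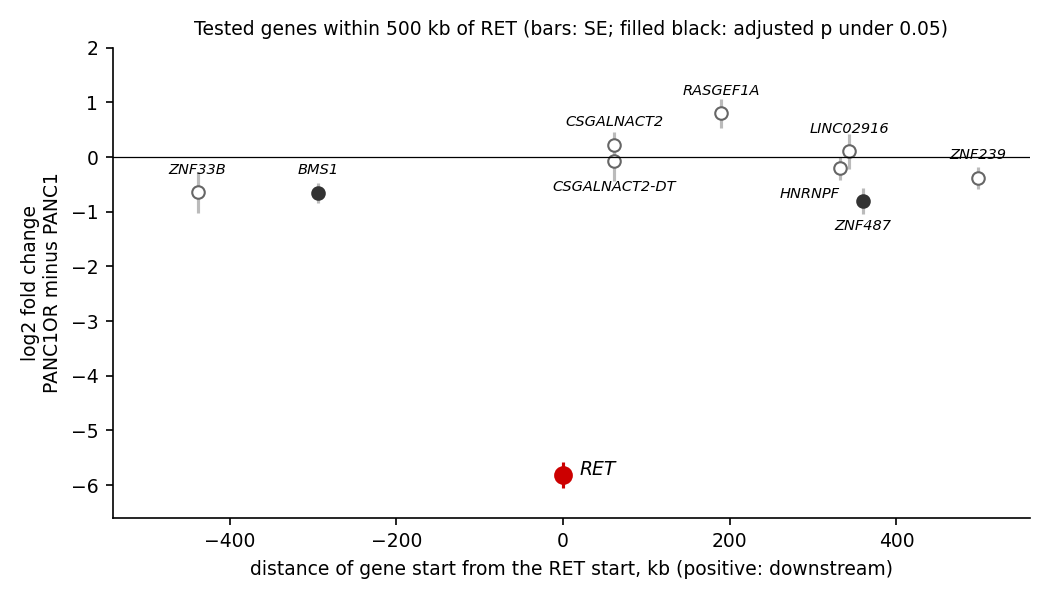
Log2 fold changes (PANC1OR minus PANC1) with SE bars of RET, in red, and the 9 tested genes within 500 kb, by the distance of their starts from the RET start in kb; filled black points pass an adjusted p under 0.05. RET lies at -5.82, whereas its neighbours lie between -0.81 and 0.80.

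The genes whose levels ran closest to RET over the 6 libraries were DSP, SIRPA and ESX1. Likeness was the root mean square difference of log2 CPM after centring each gene on its own mean, and it was 0.158, 0.159 and 0.184 for these 3. DSP, which encodes the desmosomal protein desmoplakin, was at 137, 123 and 117 CPM in PANC1 and 2.62, 2.75 and 2.64 in PANC1OR. SIRPA, the receptor gene for the CD47 signal, was at 45.6, 45.2 and 42.3 CPM and at 0.748, 0.687 and 0.578. ESX1, a homeobox gene, had 240 reads in PANC1 and 1 in PANC1OR. The measure is led by the difference between the lines. With a prior count of 0.5 in place of 2 the closest genes were ERG, TOX3 and NCALD, each with 0 reads in PANC1OR. With that prior DSP and SIRPA stood at 0.183 and 0.180 and ESX1 at 0.799.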

How the data were processed

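The authors deposited read counts per gene without normalization, 1 column per library. FastQC 0.11.5, Trim Galore 0.4.2 with cutadapt, STAR 2.5 and featureCounts (Subread 1.6.2) were the tools before that step and GRCh38 the genome, per the submitters' processing notes. The sources used here do not state the annotation release or strand setting, so overlapping genes cannot be told apart. The table has 5 further columns without values.

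Genes were filtered with filterByExpr (minimum count 10) and compared by edgeR 4.0.16 (R 4.3.3; TMM factors, quasi-likelihood F test, 6 libraries, no covariates, Benjamini-Hochberg adjustment over 18751 genes, called under 0.05), and the procedure was tested on simulated data with known changes. Adjusted p-values are from this fit unless another is named. The SE comes from the F statistic. The simulated counts had the same dispersion for all genes and no GC shift, so that test does not cover the shift of PANC1OR replicate 3. Positions, exon lengths and GC content are from GENCODE 44 (18638 tested genes matched). Levels are CPM, mean ± SD. A group without reads takes a floor of 3 reads; ratio intervals are exact (95%).

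Alternatives were RLE and upper-quartile factors, DESeq2 1.42.0, the likelihood ratio test, no filter, leaving out libraries, the replicate block and GC offsets. Named were the members and, per list, up to 4 tested genes of at least 1 CPM with the smallest p. Added were the called neighbours within 500 kb (up to 4 per member) and the 3 genes most like RET. SOX10, NCAM1, ETV4, ETV5, SPRY4 and DUSP6 were fixed, as were the other 4 family genes. Most others are marked as named after their values were seen. SDC1, single cell type markers, receptor genes beside RET in rank and genes closest with the other prior count are not marked. These were also named with values in view. Some named genes are not reported here. The members and lists were chosen with earlier results of these data known.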

Additional observations from a re-analysis of the deposited data

How the results depend on the processing

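The direction of RET, ARTN, NRTN, GFRA2 and GDNF was the same under each alternative that gave a value. The alternatives reuse the libraries by which the members were chosen, so this adds no support. GDNF had only 4 reads in PANC1 and 1 in PANC1OR, and GFRA2 4 and 16. On the scale log2(mean CPM + 1), which understates changes of low genes, the differences were -4.79 for RET, -0.58 for ARTN, -0.11 for GDNF and 0.30 for GFRA2. ARTN stood at -2.17 when 2 libraries, replicate 2 of PANC1 and replicate 3 of PANC1OR, were omitted together. GDNF ranged from -3.08 to -1.10 without 1 library. It gave no value without PANC1OR replicate 1, which held its only PANC1OR read. GFRA2 gave none without PANC1 replicate 3, which held all 4 of its PANC1 reads.

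Counts of calls moved more. Across all genes 3345 were called, and 1821 to 8663 without 1 library (1920 without PANC1 replicate 1, 1821 without PANC1 replicate 3, 8663 without PANC1OR replicate 3). GC offsets gave 7265, GC offsets with the replicate block 6329, omitting those 2 libraries 11422, and the submitters' stated cutoffs (absolute log2 fold change over 2, false discovery rate under 0.01) 1172. Without 1 library the ranges were 3 to 37 for neighbours, 5 to 16 for adaptors, 2 to 5 for neurotrophic genes, 4 to 11 for transcription factors, 14 to 30 for receptors and 1 to 5 for turnover. With those 2 libraries omitted the counts were 49 neighbours, 12 surface partners, 21 adaptors, 8 neurotrophic genes, 11 transcription factors, 34 receptors, 17 signalling targets and 8 turnover genes. That fit called 58.5% of all tested genes. With GC offsets they were 35 neighbours, 16 adaptors, 7 neurotrophic genes and 4 turnover genes, and with GC offsets and the replicate block 30, 14, 7 and 4. Without the filter 5 neurotrophic genes were called. The cause was not tested.

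Deviations of same-numbered libraries from their line means correlated at 0.46, -0.45 and -0.22 across genes. The highest correlation, 0.51, was between PANC1 replicate 2 and PANC1OR replicate 3. With 3 libraries per line and the GC shift of PANC1OR replicate 3 in these deviations, they cannot show if the replicate numbers pair the libraries. With the replicate block 2324 genes and 6 neighbours were called, and RET stood at -5.81. Of 39 called named genes, 27 were called in every fit and 12 lost the call in at least 1. Counts of a few reads limit GFRA1, GFRA2, GFRA3 and GDNF.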
